A study of Homo sapiens with 4 samples.

Results

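The tubulin genes of SK-N-BE(2), an established line of human neuroblastoma cells, were read together with TUBA1B-AS1, an antisense RNA gene at one of them. The rows are the alpha-tubulins TUBA1A, TUBA1B and TUBA1C, the beta-tubulins TUBB, TUBB2A, TUBB2B, TUBB3 and TUBB4B, the gamma-tubulin TUBG1, and TUBA1B-AS1, which make 10 of the 64252 rows of the count table. They were taken by symbol, with earlier results of these data known. TUBA1B-AS1 was selected on its fold change, because it was among the most strongly lowered rows of the same comparison. Differences of these 10 rows between the groups are therefore given as a description, without a test.

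The groups were cells transfected with a short hairpin RNA against IGF2BP3 (shIGF2BP3, 2 libraries) and cells given a control hairpin (shControl, 2 libraries), both in the same line. The sources used here do not give the hairpin sequences, the number of hairpins, the time after transfection or whether poly(A) RNA was selected. Per the labels' protocols, total RNA went into the TruSeq RNA kit of Illumina, and the counts are per gene. By its title the series asks how IGF2BP3, an RNA-binding protein that reads m6A marks, acts on the stability of E2F2 mRNA.

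Alpha- and beta-tubulin pair into the dimers that polymerise into microtubules, the tracks of axonal transport and the fibres of the mitotic spindle. Gamma-tubulin sits in ring complexes that start new microtubules. Cells hold their tubulin mRNAs in check by autoregulation, in which the protein TTC5 recognises the first residues of nascent tubulin on the ribosome and, through SCAPER and the CCR4-NOT deadenylase, leads to decay of the mRNA. The isotypes differ mostly in their acidic C-terminal tails, which carry glutamylation and are read by motors and associated proteins, and TUBB3 with TUBB2B and TUBA1A is typical of neurons.

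The tails are the part that sets the isotypes apart, so the last 60 coding bases, stop codon included, are shown for the beta genes, read from GENCODE release 29 transcripts on GRCh38, with in-frame glutamate codons (GAA or GAG) in capitals. Each stretch lies in the last exon, in coding sequence.
TUBB (chr6:30724338-30724397, plus strand): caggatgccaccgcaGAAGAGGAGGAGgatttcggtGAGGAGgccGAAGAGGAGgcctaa
TUBB2A (chr6:3153863-3153922, minus strand): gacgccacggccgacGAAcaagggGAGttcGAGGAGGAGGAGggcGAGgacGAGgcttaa
TUBB2B (chr6:3224751-3224810, minus strand): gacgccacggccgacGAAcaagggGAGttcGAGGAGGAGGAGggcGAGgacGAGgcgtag
TUBB3 (chr16:89935745-89935804, plus strand): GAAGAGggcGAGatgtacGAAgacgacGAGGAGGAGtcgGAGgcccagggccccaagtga
TUBB4B (chr9:137243497-137243556, plus strand): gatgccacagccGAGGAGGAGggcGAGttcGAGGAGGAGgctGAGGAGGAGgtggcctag

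The beta tails held 8 (TUBB2A, TUBB2B and TUBB3), 9 (TUBB) or 10 (TUBB4B) glutamate codons. Over the whole coding sequence the 3 alpha genes were 96.3% to 97.3% identical in pairs, and TUBA1B and TUBA1C shared an unbroken run of 326 bases. TUBB2A and TUBB2B were 98.1% identical with a run of 725 bases, and over all 10 beta pairs identity ran from 82.6% to 98.1%. Reads inside such runs can be placed in either gene, so values of near-identical pairs are uncertain to that extent. Identity between alpha and beta genes was 52.3% to 53.9%, and TUBG1 stood at 48.5% to 53.5% from all of them.

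The first 12 coding bases, which encode the residues that TTC5 reads in alpha- and beta-tubulin, are shown because autoregulation reads the residues they encode.
TUBA1A, TUBA1B and TUBA1C: atgcgtgagtgc
TUBB and TUBB4B: atgagggaaatc
TUBB2A: atgcgcgagatc
TUBB2B: atgcgtgagatc
TUBB3: atgagggagatc
TUBG1: atgccgagggaa
The alpha genes did not differ in these bases. The beta genes used 4 spellings that encode the same residues, and TUBB and TUBB4B shared a spelling. Any part of autoregulation in the RNA levels was not tested.

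Sequencing depth was 27537200 and 26755695 total counts for shIGF2BP3, against 27977019 and 31946756 for shControl, and a count of 0 allows a level of up to 0.0958 to 0.111 CPM (3 counts, counting error only). CPM here are counts scaled to a common library total with TMM factors (trimmed mean of M-values). Replicates did not hold the same counts. Chi-square over its degrees of freedom was 6.76 for the shIGF2BP3 pair and 7.80 for the shControl pair. It was 129.2 to 134.7 for pairs from different groups. Sampling of independent reads alone gives about 1, which need not hold if the counts are estimates from coverage. IGF2BP3 itself had 813 and 875 counts in shIGF2BP3, against 4215 and 4347 counts in shControl, and fell by 2.29 on the log2 scale (SE 0.09, adjusted p = 9.695e-12 by edgeR's quasi-likelihood test, Benjamini-Hochberg method). The labels do not tell whether replicates were separate cultures, and p-values therefore reflect the spread among these 4 libraries alone, which may be technical. Across 19767 tested genes 50.1% passed that test, 25% higher and 25.1% lower in shIGF2BP3, with a median log2 fold change of 0.01. All 9 neuroblastoma markers had counts in every library, and their summed level was 6186 and 5802 CPM in shIGF2BP3 against 7530 and 7814 CPM in shControl. Of 7 fibroblast markers all had counts, with a sum of 855.6 and 838.8 CPM in shIGF2BP3 against 661.7 and 678.1 CPM in shControl. Within these sums members differed in direction, with 7 neuroblastoma markers lower and 1 (DBH) higher by the edgeR test, and 4 fibroblast markers higher and 1 (LUM) lower. Schwann and glial markers summed to at most 9.21 CPM in shIGF2BP3 and 5.69 CPM in shControl, with SOX10 and CDH19 at 0 in every library, and leukocyte markers to at most 6.07 CPM in shIGF2BP3 and 3.19 CPM in shControl, with CD3E and LYZ at 0 in every library. The part of these differences in the tubulin values was not tested.

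Tubulin RNA was less abundant after knockdown in 8 of the 9 tubulin genes, with TUBA1C as the exception. The 9 genes together took 0.276% and 0.262% of all counts in the shIGF2BP3 libraries, against 0.523% and 0.493% in the shControl libraries. Their median log2 fold change was -0.86, and the single genes ran from -2.05 (TUBB4B) to 0.11 (TUBA1C). In 8 of 9 tubulins, and in TUBA1B-AS1, both shIGF2BP3 libraries lay below both shControl libraries, an arrangement that 36.7% of all tested genes showed. Counting either direction, the groups did not overlap in all 10 rows, as in 74.5% of tested genes. In bulk RNA, fewer cells of a kind and less RNA per cell cannot be told apart.

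**Figure D1:**
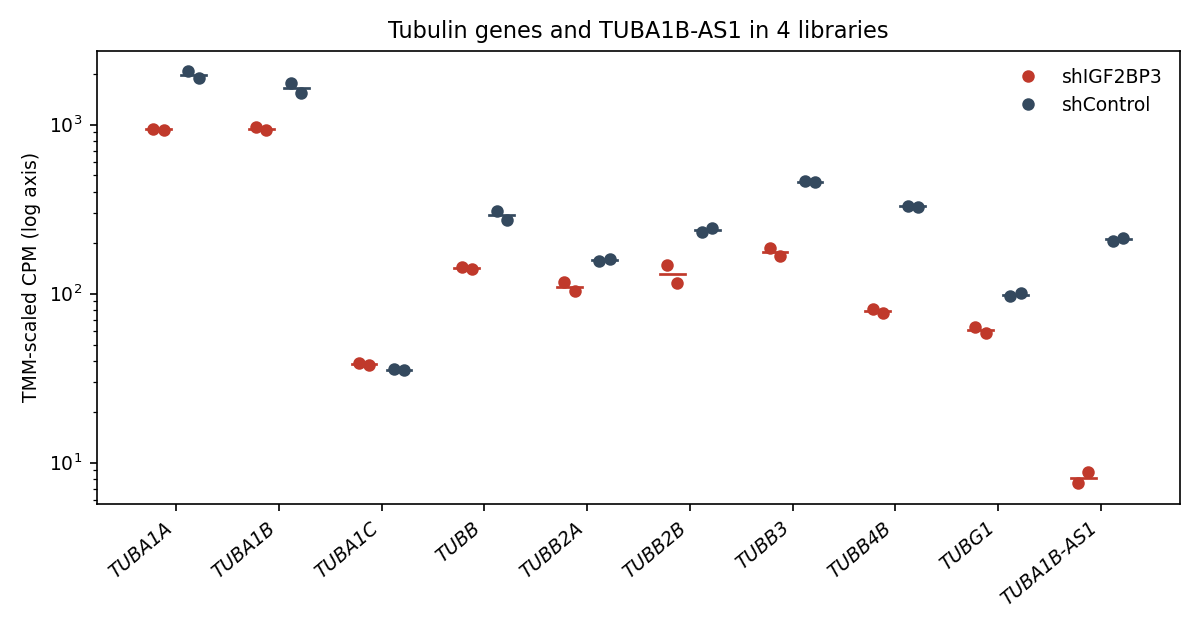
TMM-scaled CPM (log axis) of the 9 tubulin genes and TUBA1B-AS1 in each library, with points for libraries, short bars for group means and shIGF2BP3 left of shControl for each gene. TUBA1C is the gene whose shIGF2BP3 points lie above its shControl points, and TUBA1B-AS1 shows the widest gap, with means of 8.17 and 209.9 CPM.

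TUBA1A (ENSG00000167552, chromosome 12, 49184796 to 49189324, minus strand) encodes an alpha isotype prominent in developing neurons. It had 26701 and 25527 counts in shIGF2BP3, against 55577 and 59069 counts in shControl. That is 936.4 ± 8.52 CPM in shIGF2BP3 and 1976 ± 125.1 CPM in shControl (SD, n = 2 each), a log2 fold change of -1.08 (SE 0.06). The groups were far apart beside the spread within each, and TUBA1A made up 39.8% of the summed CPM difference of the 9 tubulins.

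TUBA1B (ENSG00000123416, chromosome 12, 49127782 to 49131397, minus strand) encodes a broadly used alpha isotype. It had 27309 and 25332 counts in shIGF2BP3, against 47128 and 48389 counts in shControl. The level was 943.6 ± 28.7 CPM in shIGF2BP3 and 1648 ± 144.5 CPM in shControl (SD, n = 2 each), at a log2 fold change of -0.80 (SE 0.07). TUBA1B gave 27.0% of the summed CPM difference, so that with TUBA1A it carried most of it.

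TUBA1C (ENSG00000167553, chromosome 12, 49188736 to 49274603, plus strand), the third alpha gene of the cluster, had 1096 and 1034 counts in shIGF2BP3, against 962 and 1103 counts in shControl. It stood at 38.7 and 37.7 CPM in shIGF2BP3, against 35.7 and 35.2 CPM in shControl. The groups did not overlap, but the log2 fold change of 0.11 was about the size of its SE of 0.10. TUBA1C shares 490 exon bases with TUBA1A on the opposite strand, 10.6% of its own exon length, and TUBA1A had over 20-fold more counts in every library.

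Among the beta genes, TUBB4B (ENSG00000188229, chromosome 9, 137241213 to 137243707, plus strand), a beta isotype of dividing and ciliated cells, was lowest relative to shControl. It had 2287 and 2122 counts in shIGF2BP3, against 8914 and 10153 counts in shControl. Its level of 79.0 ± 2.39 CPM in shIGF2BP3 was 24.1% of the 327.7 ± 4.73 CPM in shControl (SD, n = 2 each, log2 fold change -2.05, SE 0.07). Ordered from the lowest fold change up, TUBB4B took place 423 of 19767 tested genes.

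TUBB3 (ENSG00000258947, chromosome 16, 89921392 to 89938761, plus strand), the class III beta-tubulin used as a neuronal marker, was at 186.0 and 166.0 CPM in shIGF2BP3 and at 461.4 and 458.5 CPM in shControl. These are 5270 and 4555 counts in shIGF2BP3, against 12424 and 14352 counts in shControl. The log2 fold change was -1.39 (SE 0.07), and the shControl libraries lay closer together than the shIGF2BP3 libraries. A readthrough row (ENSG00000198211) that covers 35.8% of TUBB3's exon bases was at 0 counts in every library, so that no counts of that locus were placed there.

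TUBB (ENSG00000196230, chromosome 6, 30720201 to 30725426, plus strand), the widely expressed class I isotype, had 4090 and 3834 counts in shIGF2BP3, against 8293 and 8554 counts in shControl. The level was 142.1 ± 3.27 CPM in shIGF2BP3 and 290.6 ± 24.5 CPM in shControl (SD, n = 2 each, log2 fold change -1.03, SE 0.07). Adding the counts of its 9 pseudogene rows left the fold change at -1.02.

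TUBB2A (ENSG00000137267, chromosome 6, 3153669 to 3157526, minus strand) and TUBB2B (ENSG00000137285, chromosome 6, 3224261 to 3231730, minus strand) are the near-identical class II pair of neurons. TUBB2A had 3300 and 2848 counts in shIGF2BP3, against 4174 and 5004 counts in shControl, or 116.5 and 103.8 CPM in shIGF2BP3 and 155.0 and 159.9 CPM in shControl. TUBB2B had 4169 and 3177 counts in shIGF2BP3, against 6272 and 7638 counts in shControl, or 147.2 and 115.8 CPM in shIGF2BP3 and 232.9 and 244.0 CPM in shControl. The log2 fold changes were -0.52 (SE 0.07) for TUBB2A and -0.86 (SE 0.10) for TUBB2B, and for both genes the second shIGF2BP3 library was the lowest of all 4. TUBB2B was the most variable of the tubulins within shIGF2BP3 relative to its mean, with an SD of 22.2 CPM around 131.5 CPM, and its fold change was -0.69 without shIGF2BP3 replicate 2 and -1.04 without shIGF2BP3 replicate 1.

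TUBG1 (ENSG00000131462, chromosome 17, 42609676 to 42615234, plus strand), the main gamma-tubulin of dividing cells, had 1801 and 1613 counts in shIGF2BP3, against 2591 and 3151 counts in shControl. The level was 61.2 ± 3.38 CPM in shIGF2BP3 and 98.4 ± 3.14 CPM in shControl (SD, n = 2 each, log2 fold change -0.69, SE 0.08). Its close copy TUBG2, which is not among the 10 rows, was at 37.8 and 32.5 CPM in shIGF2BP3 and 30.9 and 29.2 CPM in shControl and did not pass the test (log2 fold change 0.23, adjusted p = 0.09679 by edgeR's quasi-likelihood test, Benjamini-Hochberg method). By the same test a call was gained without shIGF2BP3 replicate 2 (0.33, adjusted p = 0.04609) and with all libraries scaled by library size alone (0.31, adjusted p = 0.02969).

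TUBA1B-AS1 (ENSG00000258017, chromosome 12, 49127782 to 49147869, plus strand) had the lowest fold change of the 10 rows. It had 214 and 241 counts in shIGF2BP3, against 5544 and 6693 counts in shControl. Its level of 8.17 ± 0.870 CPM in shIGF2BP3 was 3.89% of the 209.9 ± 5.61 CPM in shControl (SD, n = 2 each), or 25.7-fold lower, at a log2 fold change of -4.68 (SE 0.09). That was place 27 from the lowest of 19767 tested genes. Both groups were tight beside the gap between them.

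The antisense gene overlaps the mRNA it is named for, which bears on what its counts mean. On GENCODE release 29, 1309 of its 1632 exon bases (80.2%) lie in exons of TUBA1B on the opposite strand, where they make up 36.6% of TUBA1B's 3574 exon bases. The overlap concerns 4 of its 5 transcript models, and the other lies wholly upstream of the TUBA1B start. A distal exon, 16268 to 16474 bases upstream at its longest, belongs to 2 of the models, of which 1 is among the 4. The TruSeq RNA kit named in the labels does not mark strand, and the sources used here give no strand setting or counting rule. Counts from the shared bases therefore cannot be told apart by strand, and how the authors' counting divided them between the rows is unknown.

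**Figure D2:**
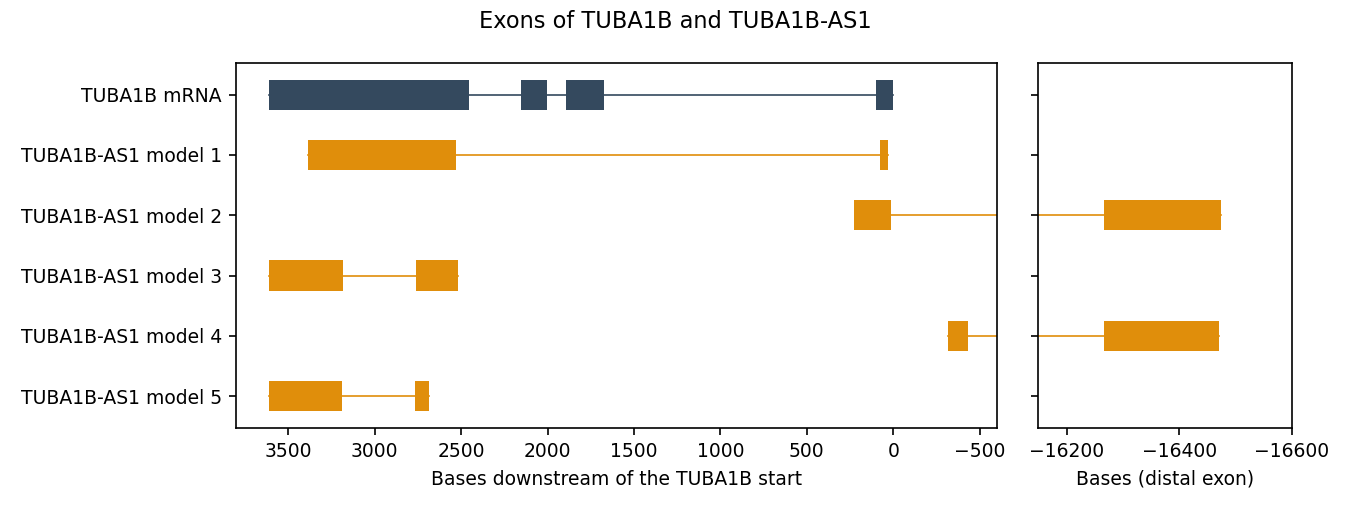
Exons (boxes) of the TUBA1B mRNA and of the 5 TUBA1B-AS1 transcript models on GENCODE release 29, by distance in bases from the TUBA1B start, with the right panel showing the distal exon at its own scale. TUBA1B is transcribed from right to left and TUBA1B-AS1 from left to right, and 4 of the 5 models share exon bases with the TUBA1B mRNA.

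Set against TUBA1B, the antisense row held few counts after knockdown. Its counts came to 0.784% and 0.951% of TUBA1B's in the shIGF2BP3 libraries, against 11.8% and 13.8% in the shControl libraries. Of the counts of both rows together, its share was 0.778% (exact 95% interval 0.677% to 0.888%) and 0.942% (0.828% to 1.07%) in shIGF2BP3, against 10.5% (10.3% to 10.8%) and 12.2% (11.9% to 12.4%) in shControl. These intervals cover counting error only and treat the counts as independent reads. They did not overlap between the 2 shControl libraries, so they understate the spread between replicates. With both rows summed, the locus stood at 951.8 ± 27.9 CPM in shIGF2BP3 and 1858 ± 138.9 CPM in shControl (SD, n = 2 each), a log2 fold change of -0.96 (SE 0.07) in place of -0.80 for TUBA1B alone.

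The start of the pair is shown because in RefSeq both genes run from it in opposite directions. The GENCODE models of TUBA1B-AS1 used for the exon overlap begin elsewhere, up to 3613 bases downstream of the TUBA1B start. The head-to-head starts and the exon overlap therefore come from different gene models. In RefSeq the TUBA1B start (position 49131395) and the TUBA1B-AS1 start (position 49131606) are 211 bases apart, head to head, and their 300-base promoter windows share 290 bases as exact reverse complements. The 250 bases before the TUBA1B start follow, 5′ to 3′ on the minus strand of GRCh38.p14, with GC boxes (GGGCGG or its reverse complement) in capitals. The promoter of TUBB4B, the tubulin with the lowest fold change, is given beside it on the plus strand up to the base before the GENCODE start, with CCAAT boxes and the CHR element TTTGAA in capitals.
TUBA1B (chr12:49131396-49131645, minus strand): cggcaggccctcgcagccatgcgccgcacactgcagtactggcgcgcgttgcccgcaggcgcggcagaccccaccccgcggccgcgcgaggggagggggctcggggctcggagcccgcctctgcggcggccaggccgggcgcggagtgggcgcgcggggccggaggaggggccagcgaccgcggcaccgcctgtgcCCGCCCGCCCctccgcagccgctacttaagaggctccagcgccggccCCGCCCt
TUBB4B (chr9:137241037-137241212, plus strand): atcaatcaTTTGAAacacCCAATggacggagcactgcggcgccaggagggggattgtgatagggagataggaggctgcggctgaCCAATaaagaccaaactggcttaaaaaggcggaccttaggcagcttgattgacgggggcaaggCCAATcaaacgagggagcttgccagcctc

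The TUBA1B window held 3 GC boxes, of which 2 overlap, and no CCAAT. The TUBB4B window held CCAAT 3 times and TTTGAA once. All 10 genes had a RefSeq promoter, with 14 windows in all, and both strands of the 250 bases before each start were searched. GGGCGG was in 8 of 10 genes and 42.6% of the 34788 promoters, CCAAT in 7 of 10 genes and 32.0% of promoters, and TTTGAA in 2 of 10 genes (TUBB4B and TUBA1C) and 13.3% of promoters. TATAAA stood in TUBB2A alone among the 10, with 10.8% of promoters holding it, and CACGTG in TUBA1C and TUBB, with 6.31% of promoters. TTCCCGC, a spelling of an E2F element, was in no window of the 10 genes and in 5.52% of promoters. Each motif was searched only as the letters given and their reverse complement. Elements spelled otherwise were not counted, so no match does not mean that a promoter lacks such an element. Both genes with TTTGAA, TUBB4B and TUBA1C, also held CCAAT, and any part of these motifs in the RNA levels was not tested. Genes with several starts had more windows to match in, and a match is no evidence that a factor binds. TUBA1B and TUBA1B-AS1 share most of their windows, so the same GC boxes count for both genes. By window, GGGCGG was in 9 of 14.

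Per kilobase of annotated exon, the alpha genes were ordered alike in both groups. TUBA1A stood at 273.7 ± 2.49 CPM per kb in shIGF2BP3 and 577.5 ± 36.6 in shControl, TUBA1B at 264.0 ± 8.04 in shIGF2BP3 and 461.1 ± 40.4 in shControl, and TUBA1C at 8.25 ± 0.152 in shIGF2BP3 and 7.66 ± 0.0747 in shControl (SD, n = 2 each). TUBA1A and TUBA1B in shIGF2BP3 were separated by little more than their spread. TUBA1A's share of all alpha-tubulin CPM per kb was 49.5% and 50.3% in shIGF2BP3 and 54.7% and 55.4% in shControl, and TUBA1C's share was under 2% in every library. With the length of the coding transcript matched to RefSeq, an alternative chosen after seeing the data, TUBA1B led in shIGF2BP3 (53.4% against 45.0% for TUBA1A) and the 2 genes were close in shControl (49.1% for TUBA1B and 50.1% for TUBA1A), while TUBA1A's share was still lower in shIGF2BP3 than in shControl. TUBA1B-AS1, on the same scale, stood at 5.01 ± 0.533 CPM per kb in shIGF2BP3 and 128.6 ± 3.43 in shControl.

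Beta-tubulin RNA had another make-up after knockdown. TUBB4B made up 13.9% and 15.1% of beta-tubulin CPM per kb in shIGF2BP3, against 27.2% and 27.1% in shControl. TUBB2A made up 24.4% and 24.7% in shIGF2BP3, against 15.6% and 16.3% in shControl. TUBB2B averaged 23.0 ± 1.85% in shIGF2BP3 and 19.0 ± 0.842% in shControl (SD, n = 2 each), TUBB 16.3 ± 1.08% in shIGF2BP3 and 15.1 ± 1.11% in shControl, and TUBB3 15.2% and 15.4% in shIGF2BP3 and 18.1% and 18.3% in shControl. The class II pair thus held the largest shares in shIGF2BP3 and TUBB4B the largest in shControl, while TUBB's shares overlapped between the groups.

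**Figure D3:**
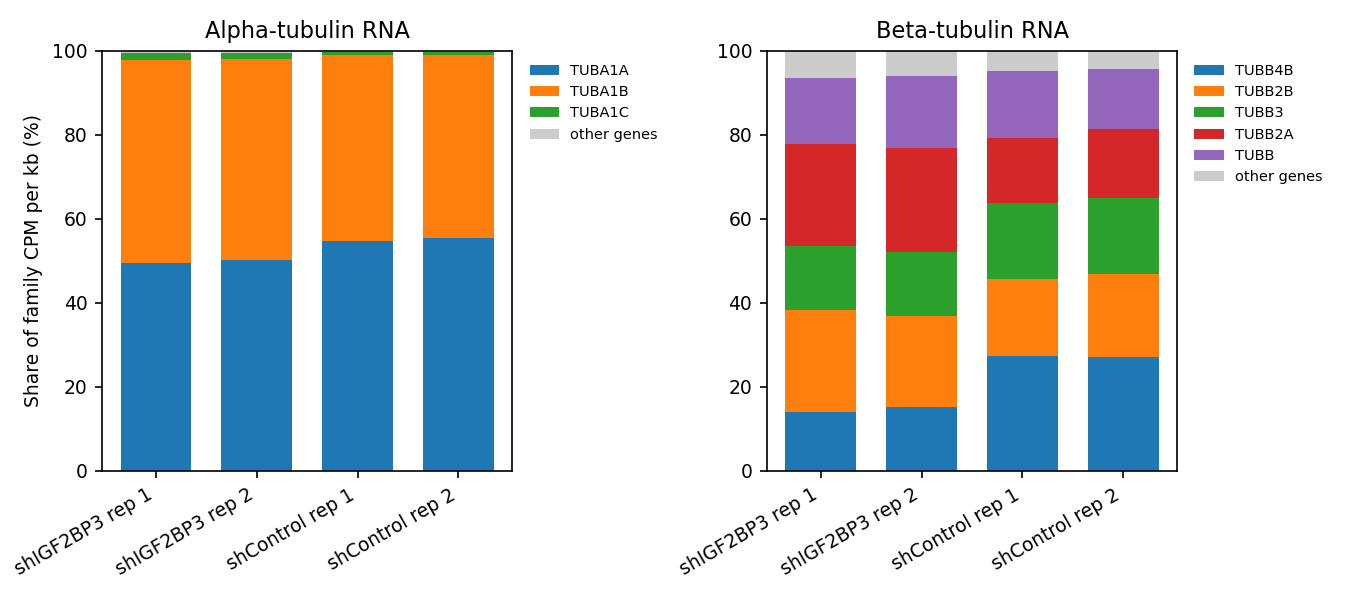
Share of alpha-tubulin (left) and beta-tubulin (right) CPM per kb of exon that each gene took in each library, in percent, with the 2 shIGF2BP3 libraries left of the 2 shControl libraries and grey for the other genes of the family. TUBB4B takes 13.9% and 15.1% in shIGF2BP3 and 27.2% and 27.1% in shControl, and TUBB2A is larger in shIGF2BP3.

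In order of level per kb, shIGF2BP3 cells had TUBB2A (63.8 ± 5.19) and TUBB2B (59.9 ± 10.1), which overlapped, and then TUBB (42.3 ± 0.973), TUBB3 (39.7 ± 3.19) and TUBB4B (37.4 ± 1.13), of which neighbours overlapped too. In shControl the order was TUBB4B (155.2 ± 2.24), TUBB2B (108.7 ± 3.57), TUBB3 (103.8 ± 0.463), TUBB2A (91.2 ± 1.98) and TUBB (86.5 ± 7.31), with overlap only between TUBB2A and TUBB. This order depends on the length used, because TUBB3's annotated exons (4430 bases) are far longer than its main coding transcript (1769 bases). With the length of that coding transcript in place of the exon length, TUBB3 led in both groups, with shares of 27.5% in shIGF2BP3 and 31.4% in shControl, and TUBB4B had 13.4% in shIGF2BP3 and 24.2% in shControl. The differences between the groups in the shares of TUBB4B, TUBB2A and TUBB3 kept their direction.

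The alpha and beta pools were both lower. Summed CPM of the 3 alpha genes was 1918 ± 38.0 in shIGF2BP3 and 3659 ± 270.0 in shControl, and that of the 5 beta genes was 638.7 ± 50.9 in shIGF2BP3 and 1474 ± 20.1 in shControl (SD, n = 2 each). Over all 10 alpha and 9 beta genes, alpha RNA per beta RNA on the per-kb scale was 2.02 and 2.22 in shIGF2BP3, against 1.92 and 1.76 in shControl. The ratio was thus higher in shIGF2BP3 without overlap, with a gap between the nearest libraries smaller than the spread within either group. Its size and this gap depend on the length used, here the exon length, and the ratio was not taken with other lengths.

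The 14 other tubulin genes were also listed with earlier results of these data known. Among them 4 fell, 0 rose, 5 did not pass and 5 had too few counts to test, with a median log2 fold change of -0.52. Of the 9 tested, 44.4% passed the test, all of them lower. Over all tested genes 50.1% passed in either direction and 25.1% were called lower. The difference from these shares was not tested. TUBE1, an epsilon-tubulin of centrioles, fell by 0.84 to 37.8 ± 2.31 CPM in shIGF2BP3, against 67.8 ± 3.15 CPM in shControl (adjusted p = 1.008e-06 by edgeR's quasi-likelihood test, Benjamini-Hochberg method). By the same test the beta genes TUBB6 (log2 -0.79, SE 0.13, adjusted p = 0.0001886) and TUBB4A (log2 -0.56, SE 0.11, adjusted p = 0.0003218) fell. The delta-tubulin TUBD1 fell by 0.52 (adjusted p = 0.0138 by the same test), but leaving out shIGF2BP3 replicate 1 (adjusted p = 0.1206) or shControl replicate 1 (adjusted p = 0.1103) ended its call. TUBA4A (-0.10), TUBA3D (-0.69), TUBA8 (1.05), TUBB1 (0.23) and TUBG2 did not pass. TUBA3C, TUBA4B and TUBAL3 had 0 counts in every library, and TUBA3E and TUBB8 had at most 10 counts in any.

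**Figure D4:**
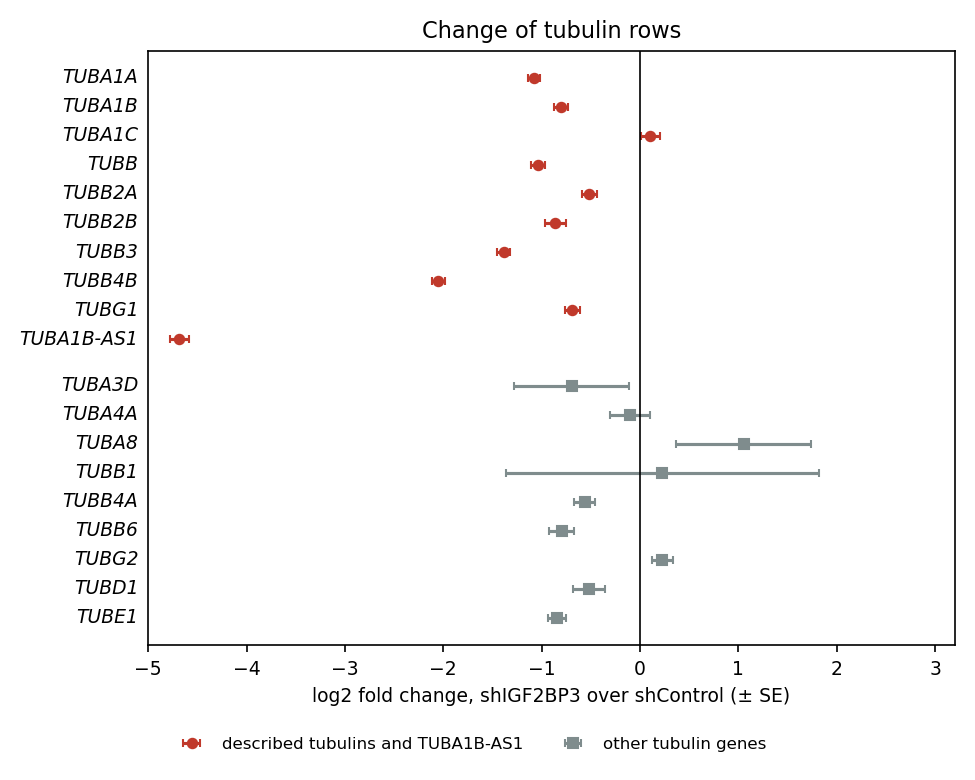
Log2 fold change of shIGF2BP3 over shControl with its SE for the 10 described rows (circles) and for the 9 other tubulin genes with enough counts to test (squares). TUBA1B-AS1 lies at -4.68, TUBB4B at -2.05 and TUBA1C at 0.11, while the other tubulins past the test lie between -0.84 and -0.52.

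Tubulin pseudogene, antisense and readthrough rows numbered 53, of which 7 had enough counts. Of these, 3 fell and 0 rose, or 42.9% past the test. Over all tested genes 50.1% passed in either direction and 25.1% were called lower. TUBBP1 stood at 9.85 and 12.1 CPM in shIGF2BP3 and 20.3 and 21.1 CPM in shControl (log2 -0.92, adjusted p = 0.00011 by edgeR's quasi-likelihood test, Benjamini-Hochberg method). TUBB2BP1 (log2 -0.91) also fell, and leaving out shIGF2BP3 replicate 1 ended its call (adjusted p = 0.05438 by the same test). TUBA5P fell by 1.49 (adjusted p = 0.0002833 by the same test). TUBA3FP (log2 0.61) did not pass, and passed without shIGF2BP3 replicate 1 (log2 0.94, adjusted p = 0.03179 by the same test). The rows TUBBP1 and TUBB2BP1 share sequence with TUBB and TUBB2B, so reads of those genes may be among their counts.

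Tubulin needs cofactors to fold, and of 12 tested folding cofactor and prefoldin genes 6 fell, 2 rose and 4 did not pass, or 66.7% past the test beside 50.1% of all tested genes. TBCD, which assembles the dimer, fell by 1.05 on the log2 scale to 55.3 ± 1.26 CPM in shIGF2BP3, against 114.2 ± 1.91 CPM in shControl, and its partner ARL2 fell to 24.0 ± 5.03 CPM in shIGF2BP3, against 68.1 ± 2.56 CPM in shControl. TBCC, which acts in the same step, rose by 0.87 to 66.7 ± 2.21 CPM in shIGF2BP3, against 36.5 ± 2.23 CPM in shControl. TBCEL, which can take tubulin dimers apart, rose by 0.92, and the median of the list was -0.22.

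Of 13 genes of tubulin mRNA autoregulation and CCR4-NOT, 5 fell, 2 rose and 6 did not pass (53.8% past the test, near the 50.1% of all tested genes), with a median of 0.01. CNOT1, the scaffold of the complex, fell by 1.49 to 127.8 ± 1.66 CPM in shIGF2BP3, against 360.2 ± 10.9 CPM in shControl (adjusted p = 2.995e-11 by edgeR's quasi-likelihood test, Benjamini-Hochberg method). CNOT9 fell by 0.69 and the deadenylase CNOT7 by 0.57, while the deadenylase CNOT6 rose by 0.35. TTC5 and SCAPER, named after their values were seen, did not pass the test. TTC5 stood at 30.7 ± 0.368 CPM in shIGF2BP3 and 27.7 ± 2.48 CPM in shControl, and SCAPER at 23.4 ± 1.02 CPM in shIGF2BP3 and 23.2 ± 1.28 CPM in shControl (SD, n = 2 each).

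Of 22 genes of the gamma-tubulin complex, augmin and nucleation, 16 fell, 4 rose and 2 did not pass, or 90.9% past the test beside 50.1% of all tested genes, with a median of -0.71. TPX2, a spindle nucleation factor, fell by 1.72 to 96.9 ± 1.45 CPM in shIGF2BP3, against 318.8 ± 19.7 CPM in shControl (adjusted p = 1.483e-11 by edgeR's quasi-likelihood test, Benjamini-Hochberg method). MZT2B, a small subunit of the gamma-tubulin ring, and HAUS2, an augmin subunit, each fell by 1.22. CKAP5, the polymerase of microtubule plus ends, fell by 0.95 to 208.8 ± 7.50 CPM in shIGF2BP3, against 403.5 ± 5.23 CPM in shControl.

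Microtubule-associated and dynamics genes moved both ways, with 13 higher, 11 lower and 5 not past the test among 29 and a median of 0.06. That is 82.8% past the test, beside 50.1% of all tested genes (25% higher and 25.1% lower). MAP1A, a neuronal microtubule stabiliser, rose by 1.44 to 186.4 ± 6.59 CPM in shIGF2BP3, against 68.7 ± 7.57 CPM in shControl, and STMN4 rose by 1.43. STMN1, which binds free tubulin dimers, fell by 1.23 to 306.4 ± 7.66 CPM in shIGF2BP3, against 719.1 ± 35.6 CPM in shControl. CAMSAP1, which binds minus ends, fell by 0.90.

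Genes of tubulin modification, most but not all of which act on the tails, were also split. Of 19 tested, 6 were higher, 7 lower and 6 not past the test, with a median of -0.24. That is 68.4% past the test, beside 50.1% of all tested genes, and without shIGF2BP3 replicate 2 it was 3 higher and 6 lower. AGBL5, a deglutamylase that removes branch-point glutamates, fell by 1.89 to 24.3 ± 1.21 CPM in shIGF2BP3, against 89.8 ± 3.64 CPM in shControl (adjusted p = 8.698e-11 by edgeR's quasi-likelihood test, Benjamini-Hochberg method). TTLL7, a polyglutamylase of beta-tubulin tails, rose by 1.00 to 126.4 ± 9.99 CPM in shIGF2BP3, against 63.3 ± 5.17 CPM in shControl. Of the vasohibins, which cut the last tyrosine from alpha-tubulin, VASH2 rose by 0.87 and VASH1 fell by 1.12.

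**Figure D5:**
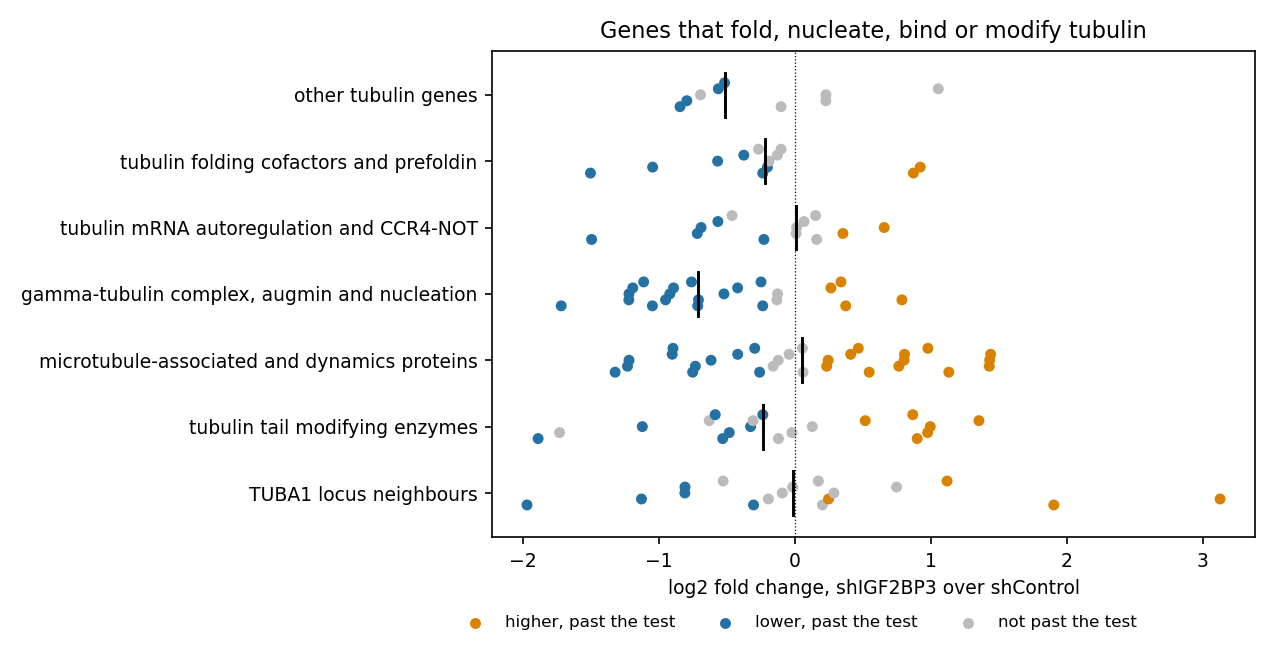
Log2 fold change of shIGF2BP3 over shControl for tested genes of 6 tubulin-related lists and the neighbours of TUBA1B, with a point per gene coloured by call (edgeR, adjusted p under 0.05) and a black bar at the median. The nucleation list has 16 lower and 4 higher genes, while microtubule-associated genes have 13 higher and 11 lower.

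Around TUBA1B, 17 of 30 other rows within 250 kb had enough counts, and of these 5 fell, 4 rose and 8 did not pass (52.9% past the test, near the 50.1% of all tested genes), with a median of -0.02. Without shIGF2BP3 replicate 2 the number that rose was 2. TROAP, a spindle-associated protein gene, fell by 1.97 to 28.9 CPM in shIGF2BP3, against 113.3 CPM in shControl, ARF3 by 1.13, and C1QL4 and DNAJC22 by 0.81 each. PRPH, a neuronal intermediate filament gene, fell by 0.30, while DDN rose by 1.90 and FKBP11 by 1.12. SPATS2 rose by 0.25, but leaving out shIGF2BP3 replicate 2 (adjusted p = 0.06537 by edgeR's quasi-likelihood test, Benjamini-Hochberg method) or shControl replicate 2 (adjusted p = 0.1682) ended its call. The row ENSG00000272822, without a symbol, had 12 and 41 counts in shIGF2BP3, against 6 and 0 counts in shControl (log2 3.13, SE 1.06), and leaving out shIGF2BP3 replicate 2 (log2 1.94, adjusted p = 0.3549) or shControl replicate 2 (log2 2.06, adjusted p = 0.05342) ended its call, as did the replicate block (adjusted p = 0.05172). Lower values of TUBA1A, TUBA1B and TUBA1B-AS1 thus stood beside neighbours in both directions.

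By the distance between centred log2 CPM over the 4 libraries, among 13317 candidates, the genes most like TUBA1B in pattern were SEPTIN10 (0.0223), NCBP2 (0.0299), EIF4A3 (0.0315), SLBP (0.0316) and SENP1 (0.0335). Those most like TUBA1B-AS1 were GYG2 (0.668), IL17RD (0.995), PBK (1.03), CACNG4 (1.09) and INSM1 (1.09). The distances for TUBA1B-AS1 were over 10-fold larger, and its nearest gene, GYG2, stood at 0.501 CPM in shIGF2BP3 and 9.87 CPM in shControl. Over 4 libraries in 2 groups such likeness reflects mainly the size of the group difference.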

How the data were processed

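RNA from 2 shIGF2BP3 and 2 shControl libraries was sequenced. The authors deposited whole-number counts per Ensembl gene (64252 rows). HISAT2 2.2.0, StringTie and hg38 are named per the submitters' processing notes, with no role or order, and the sources used here give no annotation, strand setting or counting rule. Counts made by StringTie would be rounded estimates from coverage. Symbols came from a gene name table for 56105 rows and from GENCODE release 29 for 486, while 7661 had none. Total counts were 26755695 to 31946756.

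From the counts, edgeR 4.0.16 in R 4.3.3 compared shIGF2BP3 with shControl over all 4 libraries, with TMM scaling, filterByExpr at a minimum count of 10, the robust quasi-likelihood test and Benjamini-Hochberg adjustment over 19767 genes at 0.05. The common biological coefficient of variation was 12.62%, on 2 residual degrees of freedom. The script was tested on simulated data. Levels per kb used the exon union of GENCODE release 29, and promoters came from RefSeq. The members, the gene lists and the tests were chosen with earlier results of these data known.

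Named were all members, all other tubulin genes, IGF2BP3, the 4 genes of smallest p in each other list, every neighbour of TUBA1B past the test, pseudogene rows with 100 counts in any library, and the 5 genes most like TUBA1B and TUBA1B-AS1. Alternatives were DESeq2 1.42.0 (size factors and Wald test), limma 3.58.1 voom, library size alone, other count filters, a replicate block, each library left out, summed rows and other lengths. Proteins were not analysed here, and the coding ends of the alpha genes are not reported here.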

Additional observations from a re-analysis of the deposited data

How the results depend on the processing

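Of the 9 tubulins, 8 were lower in shIGF2BP3 under all 11 alternatives, and among 117 alternative values of the 10 rows 0 turned sign. Of these 117 values, 10 moved by more than the gene's within-group SD of log2 CPM. TUBA1B-AS1 lay between -4.79 and -4.57, TUBB4B between -2.08 and -1.97 and TUBA1C between 0.08 and 0.19 on the log2 scale. The median of the 9 tubulins was -1.04 to -0.77 without single libraries, and -1.04 without shIGF2BP3 replicate 1, where TUBB2B gave it. IGF2BP3 stayed past the test, between -2.39 and -2.20. Genes past the test numbered 8607 to 9461 when a library was left out and 8607 to 10028 over all alternatives. Leaving out a library leaves its group with 1, which is then assumed to vary like the other group. Scaling by library size alone moved the median of all genes to 0.09 and gave 5578 higher and 4309 lower. The replicate block gave 9706 genes, and because the deviations of same-numbered libraries correlated at 0.0208, the numbers were not treated as a pairing. None of 77 totals past the test of the lists and neighbours moved by over 1.5 times. Fewer tubulin modification genes and fewer neighbours were higher without shIGF2BP3 replicate 2. TUBG2 made 1 other tubulin higher in place of 0 without that library and with library size alone. Of the 44 single genes tested, 8 of 479 alternative values lost a call, 3 gained one and 4 turned, none of the 4 past the test. The turned genes, when single libraries were left out, were TUBA4A (-0.30 to 0.081), TUBB1 (-0.83 to 1.19) and SCAPER (-0.061 to 0.067), and the cause was not tested. By the longest transcript, the coding transcript or no length, TUBB4B had 11.5%, 13.4% or 11.3% of beta-tubulin RNA in shIGF2BP3, against 21.4%, 24.2% or 20.8% in shControl, and the group differences of TUBA1A, TUBB2A and TUBB3 also kept their direction. With 2 libraries a group, a gene without a call may still have changed, and the antisense row cannot be separated from TUBA1B by strand.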
